A study of Mus musculus with 27 samples.

Results

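The RNA content of the nucleus was compared with that of the cytosol in unstimulated mouse cortical neurons, using 6 of the 27 libraries of the study. Nuclear and cytosolic libraries that carry the same library number (S number) in their labels were treated as pairs, which gave 3 pairs. A gene entered the comparison when its FPKM (fragments per unit of gene model length, scaled to the mapped fragments of the library) was at least 1 in at least 3 of the 6 libraries. Of 59489 entries in the deposited table, 13568 met this rule, and 11478 of them carry a gene symbol; 9 more lie on the mitochondrial genome and were named by position, and 2081 have no name. The entries just inside the rule were Tmem106a and Fam163a, whose third-highest value was 1.001 in both, and the nearest entries outside it included Ccnb1, at 0.9989.

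The study measured polyadenylated RNA by stranded sequencing in primary cortical cells taken from wild-type mouse embryos at embryonic day 16.5 and kept for 14 days in culture. All 6 libraries compared here came from cells that received 1 µM triptolide for 3 h and no stimulus. The study also holds whole-cell libraries under the same treatment, and nuclear, cytosolic and whole-cell libraries of cells given bicuculline, a blocker of GABA-A receptors that raises network activity. These were used only as second readings of the same genes. The labels describe RNA extraction but not how nuclei and cytosol were separated, and they do not say whether the 3 numbers stand for separate cultures. The p-values therefore measure the spread between these libraries, which may be technical. Cultures of this kind hold neurons together with glia, and the labels name no sort.

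Pre-mRNA is spliced and polyadenylated in the nucleus and the mature mRNA leaves through nuclear pores. Many long noncoding RNAs stay in the nucleus, and some polyadenylated transcripts that keep an intron are also held there until the intron is removed. In neurons, the finished mRNAs in the cytosol are translated in the cell body or carried into dendrites and axons. Triptolide blocks the start of transcription by RNA polymerase II through the general factor TFIIH, so an RNA measured after this drug was in large part made before it.

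The estimated depth was 67733386 to 72049738 fragments for the nuclear libraries and 84910510 to 86787232 for the cytosolic ones. The nuclear libraries showed 13668 to 13911 entries at an FPKM of at least 1, and the cytosolic libraries 12056 to 12149. RNAs encoded by the mitochondrial genome made up 10.4 to 12.5% of the summed FPKM in the nuclear libraries and 9.52 to 12.3% in the cytosolic ones, so this non-nuclear RNA was as abundant in the nuclear libraries. Its part in the results was not tested. Removing these RNAs and rescaling each library by a single factor left 10190 genes past the test against 10213 with them. That step cannot show how other RNA from outside the nucleus enters the nuclear libraries. Because FPKM is a share of each library's own RNA, a higher value in one fraction does not say that this fraction holds more molecules.

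The difference between the fractions was wide and lopsided. Of the genes tested, 10213 (75.3%) differed at an adjusted p under 0.05 in limma with the pairs as a block. The nucleus was higher for 5640 of them (41.6%) and the cytosol for 4573 (33.7%). The sizes were unequal: 2064 genes (15.2%) were at least 2-fold higher in the nucleus, while 47 (0.346%) were at least 2-fold higher in the cytosol. The libraries of the 2 fractions did not overlap for 5336 genes with the nucleus higher (39.3%) and for 4104 with the cytosol higher (30.2%), and statements below that fractions do not overlap are to be read against these shares. The median log2 difference of all genes was 0.05, nucleus minus cytosol, on the log2(FPKM + 0.5) scale that is used for every log2 difference given here. Quantile normalization moved that median to -0.12, a shift of -0.17, and turned the split of the calls to 4153 higher in the nucleus and 6319 higher in the cytosol, with 1045 and 282 of them at least 2-fold.

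**Figure D1:**
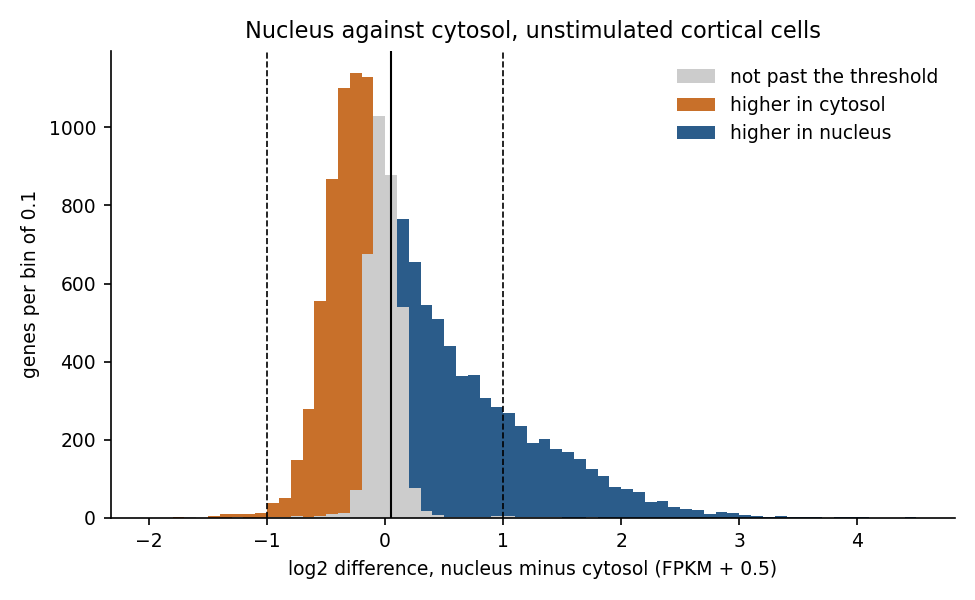
Histogram of the log2 difference, nucleus minus cytosol, of the 13568 genes tested, in bins of 0.1, coloured by the outcome of the limma test. Dashed lines mark a 2-fold difference and the solid line the median of 0.05; values beyond the axis are drawn in the end bins. The tail on the nuclear side holds 2064 genes and that on the cytosolic side 47.

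Part of this asymmetry follows from the entry rule. Of the genes tested, 1249 reached an FPKM of 1 in nuclear libraries alone, and 33 in cytosolic libraries alone. Such genes had to differ, and 1245 and 28 of them passed the test. Of the 11492 genes at or above an FPKM of 1 in all 6 libraries, 3959 were higher in the nucleus and 4445 in the cytosol, with 978 and 40 at least 2-fold. Their median was -0.04.

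Among the gene lists, long noncoding RNAs known to stay in the nucleus had the highest median difference, and Xist had the largest difference of the genes named here. That rank depends on the entry rule. Over members at an FPKM of at least 1 in all 6 libraries, the median of these RNAs was 0.91 and that of CLK and DYRK kinases 1.01. Xist, the RNA that coats the inactive X chromosome (chrX:103460373-103483233 in mm10, as the deposited table gives it), had 533, 313 and 75.7 FPKM in the 3 nuclear libraries and 4.21, 1.88 and 0.514 in the cytosolic ones. The third pair was several times lower than the others in both fractions, yet its nuclear value was above every cytosolic value. The log2 difference was 6.70 ± 0.17 (SE, n = 3 pairs; limma adjusted p = 5.0e-06). Its antisense RNA Tsix covers all 22861 nucleotides of the gene, and the strand setting of the counting is not known from the labels. Meg3, a maternally expressed RNA of the imprinted Dlk1-Dio3 region (chr12:109540996-109571729), had 798, 826 and 768 FPKM in the nucleus and 83.3, 76.9 and 76.6 in the cytosol. Its fractions were far apart and its libraries close together, with a log2 difference of 3.33 ± 0.04 (limma adjusted p = 1.1e-08). Even so, 79 FPKM of Meg3 in the cytosol is well above the median gene there, at 6.85.

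Other RNAs of the imprinted Meg3 region were also higher in the nucleus. Mirg, a host transcript of microRNAs, had 20.2, 18.9 and 19.7 FPKM in the nucleus and 1.72, 1.34 and 0.996 in the cytosol (log2 difference 3.46 ± 0.10, limma adjusted p = 1.2e-07). Rian, which hosts small nucleolar RNAs and was chosen after its values were seen, reached 1.39, a difference smaller than those of its neighbours Meg3 and Mirg. Firre, an X-linked RNA with roles in nuclear organisation, reached 3.80, with 40.3, 40.3 and 48.1 FPKM in the nucleus against 2.74, 2.31 and 2.78. Miat, a neuronal RNA that gathers in nuclear bodies, had 134, 140 and 144 FPKM against 22.2, 20.2 and 19.8 (2.72 ± 0.06, limma adjusted p = 4.6e-08).

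Of the 20 long noncoding RNAs listed as nuclear, 15 were tested. The nucleus was higher for 10 and the cytosol for 2, 8 were at least 2-fold higher in the nucleus, and the median was 1.39 against 0.05 over all genes. Peg13, an imprinted RNA inside the Trappc9 gene, went the other way at -0.55, with 29.6, 29.2 and 27.6 FPKM in the nucleus and 43.8, 43.6 and 39.7 in the cytosol. Malat1 and Neat1, the best known RNAs of nuclear speckles and paraspeckles, have no entry under these names and were not analysed here. Hosts of small nucleolar RNAs fell into 10 higher in the nucleus and 0 higher in the cytosol of 14 tested, with a median of 0.33. Of the 14, 1 had reached an FPKM of 1 in nuclear libraries alone and had to be higher there. The median was 0.26 over the hosts at an FPKM of at least 1 in all 6 libraries. Snhg20 stood at 3.17, Snhg11 at 2.89 and Snhg3 at 0.69, and 5 of the 14 were at least 2-fold higher in the nucleus.

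**Figure D2:**
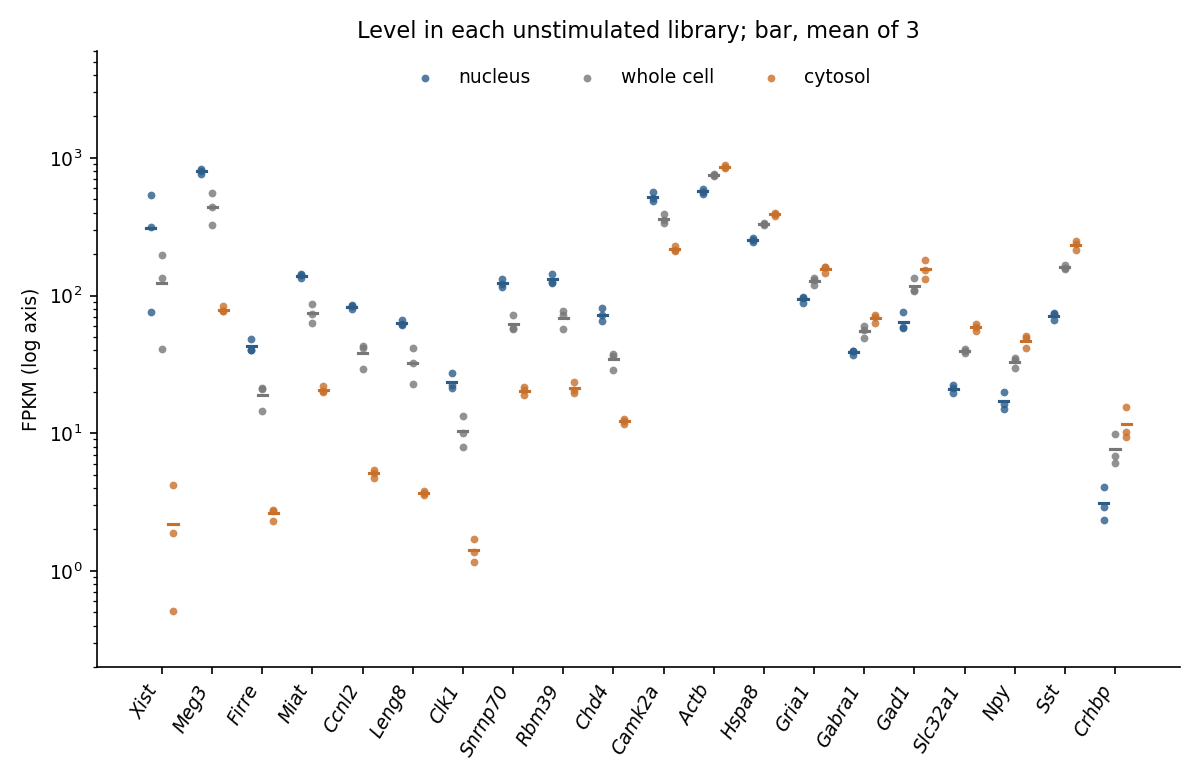
FPKM on a log axis of 20 genes in the 3 nuclear (blue), 3 whole-cell (grey) and 3 cytosolic (orange) unstimulated libraries; each point is a library and each bar the mean of 3. From Xist to Camk2a the nuclear libraries lie above the cytosolic ones, from Actb to Crhbp below them, and the whole-cell libraries lie in between.

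Among protein-coding genes, the mRNAs of the kinases that phosphorylate splicing factors were strongly nuclear. Clk1, a kinase of SR proteins whose own transcript is known to be detained with introns, had 22.2, 21.2 and 27.4 FPKM in the nucleus and 1.72, 1.16 and 1.37 in the cytosol. That is a log2 difference of 3.66 ± 0.10 (limma adjusted p = 1.0e-07), and the 3 nuclear libraries lay far above every cytosolic one. Its relative Clk4 reached 2.73, with 22.2, 20.6 and 24.9 against 3.13, 2.74 and 3.09, and Prpf4b, a kinase acting on the spliceosome, 1.83. Of 11 CLK, DYRK and related kinases tested, 8 were higher in the nucleus, 6 of them at least 2-fold, and 2 in the cytosol. The median was 1.01, and 0.64 under quantile normalization.

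The substrates of these kinases, SR proteins and their relatives, showed the same side in most members. Of 32 tested, 27 were higher in the nucleus and 3 in the cytosol, 14 were at least 2-fold higher in the nucleus, and the median was 0.74. Rbm39, a splicing coactivator, had 126, 124 and 145 FPKM in the nucleus and 23.5, 20.7 and 19.4 in the cytosol (2.60 ± 0.08, limma adjusted p = 3.4e-07). Rsrp1 and Pnisr, both rich in arginine-serine repeats, reached 2.89 and 2.53. The exceptions were Srsf12 at -0.54, Srsf3 at -0.40 and Tra2b at -0.31, the last of which had an adjusted p of 0.067 in limma when no entry was filtered out.

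The core spliceosome did not move as a block. Of 61 components tested, 13 were higher in the nucleus and 30 in the cytosol, with a median of -0.15. Its nuclear members were few and widely separated: Prpf39, a U1-associated factor, at 2.89, the U1 protein Snrnp70 at 2.56 and the U2 protein Sf3b1 at 1.66. Snrnp70 had 132, 121 and 116 FPKM in the nucleus and 21.7, 20.5 and 19.1 in the cytosol, with no overlap between the fractions. On the cytosolic side the differences were small, reaching -0.55 for Snrpf, a Sm-ring protein, -0.54 for Sf3b4 and -0.49 for Slu7. Among hnRNPs and neuronal splicing regulators, 18 of 47 were higher in the nucleus and 20 in the cytosol, near the 41.6% and 33.7% of all genes. Celf1 (1.15), Qk (1.13) and Nova1 (1.11) led the nuclear side and the neuronal RNA-binding proteins Elavl2 (-0.88) and Elavl4 (-0.56) the cytosolic side. The median of this list was -0.07, and it changed sign to 0.02 under quantile normalization.

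Of 51 genes for nuclear pores, mRNA export and 3' end processing, 29 were higher in the nucleus and 8 in the cytosol, where 41.6% and 33.7% of all genes were. The median was 0.41, and 0.11 under quantile normalization. Pabpn1, the nuclear poly(A)-binding protein, had 200, 185 and 187 FPKM in the nucleus and 34.7, 33.8 and 26.6 in the cytosol (2.58 ± 0.07, limma adjusted p = 8.5e-08). Xpo1, the main nuclear export receptor for proteins, reached 2.07 and Cpsf4, a cleavage and polyadenylation factor, 1.60. Cytosolic exceptions were Rae1 (-0.52), Cpsf2 (-0.44) and Thoc3 (-0.38). Factors of nonsense-mediated decay, which removes mRNAs with a premature stop codon, gave 9 of 16 higher in the nucleus and 5 in the cytosol, the latter near the 33.7% of all genes. Their median was 0.46, and 0.19 under quantile normalization. The kinase Smg1 (1.63) and the nuclease Smg6 (1.08) led the first group.

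Chromatin regulators were the largest list with a nuclear majority. Of 102 tested, 79 were higher in the nucleus and 13 in the cytosol, 32 were at least 2-fold higher in the nucleus, and 3 had reached an FPKM of 1 in nuclear libraries alone. The median was 0.56. Chd4, the ATPase of the NuRD complex, had 65.0, 71.9 and 80.9 FPKM in the nucleus and 11.7, 12.8 and 12.3 in the cytosol (2.52 ± 0.06, limma adjusted p = 6.4e-08). Hdac7, a class IIa deacetylase, reached 2.59 and the remodeller Chd6 2.18. The class I deacetylase Hdac2, at -0.43, and the demethylase Kdm1a, at -0.42, were higher in the cytosol, so deacetylases stood on both sides. Genes for RNA polymerase II, Mediator and Integrator did not share this lean: 15 of 51 were higher in the nucleus, 21 in the cytosol, and the median was -0.08. Circadian clock genes gave 13 of 19 in the nucleus and 2 in the cytosol, led by Per3 at 1.48. For immediate early genes, which respond to activity, the counts were 6 and 6 of 17 in these unstimulated cells, near the shares of all genes.

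The other protein-coding genes named by rank on the nuclear side were mostly outside these lists. Leng8, an RNA-associated protein, had 62.0, 66.8 and 61.4 FPKM in the nucleus and 3.82, 3.58 and 3.69 in the cytosol (3.93 ± 0.06, limma adjusted p = 1.3e-08). Ccnl2, a cyclin linked to splicing, had 83.5, 80.0 and 85.3 against 5.38, 4.74 and 5.17 (3.90 ± 0.05, limma adjusted p = 1.1e-08). Wsb1, a substrate receptor of ubiquitin ligases, reached 3.39, with 80.4, 79.0 and 104 FPKM against 8.06, 7.51 and 8.01. In all 3 genes the lowest nuclear library was above the highest cytosolic one, and the fitted folds were 10.5 to 15.2.

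Several further names on this side are genes best known from other tissues: Masp2, a complement protease (3.93), Ghrl, the ghrelin precursor (3.58), Slc2a2, a glucose transporter of liver and pancreas (3.52), and Stac3, a muscle adaptor (3.43). Ssh3, a phosphatase of cofilin, reached 3.65. Masp2 overlaps 3118 nucleotides of Tardbp on the opposite strand, Ghrl overlaps an opposite-strand transcript over 695 nucleotides, and Slc2a2 lies across from an antisense RNA. With the strand setting unknown, reads of the 2 strands cannot be told apart. Stac3 and Ssh3 were under an FPKM of 1 in every cytosolic library.

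The cytosolic side was led by genes of inhibitory neurons. Sst, the neuropeptide somatostatin (chr16:23889581-23890845), had 73.1, 74.6 and 66.2 FPKM in the nucleus and 213, 251 and 237 in the cytosol. The fractions did not overlap and the log2 difference was -1.70 ± 0.06 (limma adjusted p = 2.2e-07). Crhbp, which binds corticotropin-releasing hormone, had 2.92, 2.35 and 4.09 FPKM against 9.35, 10.2 and 15.4 (-1.74 ± 0.08, limma adjusted p = 8.2e-07). Slc32a1, the vesicular transporter that loads GABA (chr2:158610758-158615764), had 22.2, 19.4 and 21.3 against 55.5, 58.6 and 62.3 (-1.47 ± 0.06, limma adjusted p = 4.5e-07). In each of these 3 genes the lowest cytosolic library was more than 2 times the highest nuclear one.

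The other names by rank were Nxph1 (-1.45) and Nxph2 (-1.38), secreted ligands of neurexins, the neuropeptides or precursors Npy (-1.44), Pnoc (-1.39), Tac2 (-1.37) and Tac1 (-1.36), and Lgi2 (-1.39), Spock3 (-1.38) and Olfm3 (-1.36). The product of each of these 9 genes is secreted. Tac2 had 5.59, 1.78 and 2.77 FPKM in the nucleus and 14.0, 5.97 and 7.90 in the cytosol, and its adjusted p was 0.051 in limma without the pairing. Of the 47 entries at least 2-fold higher in the cytosol, 41 have a symbol and 13 belong to the list of inhibitory markers or that of granins and neuropeptides.

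Of 9 inhibitory markers tested, 8 were higher in the cytosol and 1 in the nucleus, with a median of -1.23. Gad1 and Gad2, the enzymes that make GABA, stood at -1.27 and -1.11, Vip at -1.23 and the transcription factor Lhx6 at -0.91. Gad1 had 57.9, 58.7 and 76.3 FPKM in the nucleus and 132, 153 and 182 in the cytosol. The exception was Dlx1, a transcription factor of the same lineage, with 13.1, 7.45 and 10.7 FPKM in the nucleus and 8.79, 5.996 and 7.29 in the cytosol (0.46). Vip and Dlx1 passed the test only with the pairing; without it, their adjusted p in limma was 0.12 and 0.092. The summed FPKM of the tested inhibitory markers was 291 to 313 in the nuclear libraries and 695 to 829 in the cytosolic ones.

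Markers of other cell types did not move with them as one. Excitatory markers summed to 788 to 903 FPKM in the nucleus and 618 to 665 in the cytosol, with 3 of 12 higher in the nucleus and 7 in the cytosol (median -0.40). Camk2a alone gave 488 to 568 FPKM of the nuclear sum, while the vesicular glutamate transporter Slc17a7 was at -0.52 and Slc17a6 at -0.80. Astrocyte markers summed to 1909 to 2129 in the nucleus and 1692 to 1864 in the cytosol, with 11 of 14 higher in the nucleus and 1 in the cytosol (median 0.32). Gfap, their intermediate filament, stood at 0.79, with an adjusted p of 0.093 in limma without the pairing, and Aldh1l1 at 0.61.

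Oligodendrocyte lineage markers summed to 76.7 to 94.6 FPKM in the nucleus and 86.3 to 122 in the cytosol, with 2 of 11 higher in the nucleus and 6 in the cytosol. Among progenitor markers, 4 of 8 were higher in the nucleus and 1 in the cytosol, but 2 of the 8 had reached an FPKM of 1 in nuclear libraries alone and had to be higher there. Their median was 0.54, and 0.26 over the markers at an FPKM of at least 1 in all 6 libraries. The intermediate filament Nes led them at 1.85, with 20.9, 31.2 and 36.8 FPKM against 6.69, 8.31 and 7.96. Of 12 microglia markers, 7 were tested and summed to 6.74 to 20.2 FPKM in the nucleus and 5.31 to 17.01 in the cytosol, with 5 higher in the nucleus; their median of 0.29 turned to -0.36 under quantile normalization. Tmem119 was at 0 in 1 library of each fraction and at most 0.028 elsewhere. The endothelial marker Cldn5 was listed at 0 in all 6 libraries, and 3 of 13 vascular or mesenchymal markers were tested. The part of these cell types in the results was not tested. For the level of a marker within a fraction, fewer cells of a type and less RNA per cell cannot be told apart in bulk libraries. Whether the 2 fractions recovered each cell type equally is not known from the labels and was not tested.

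**Figure D3:**
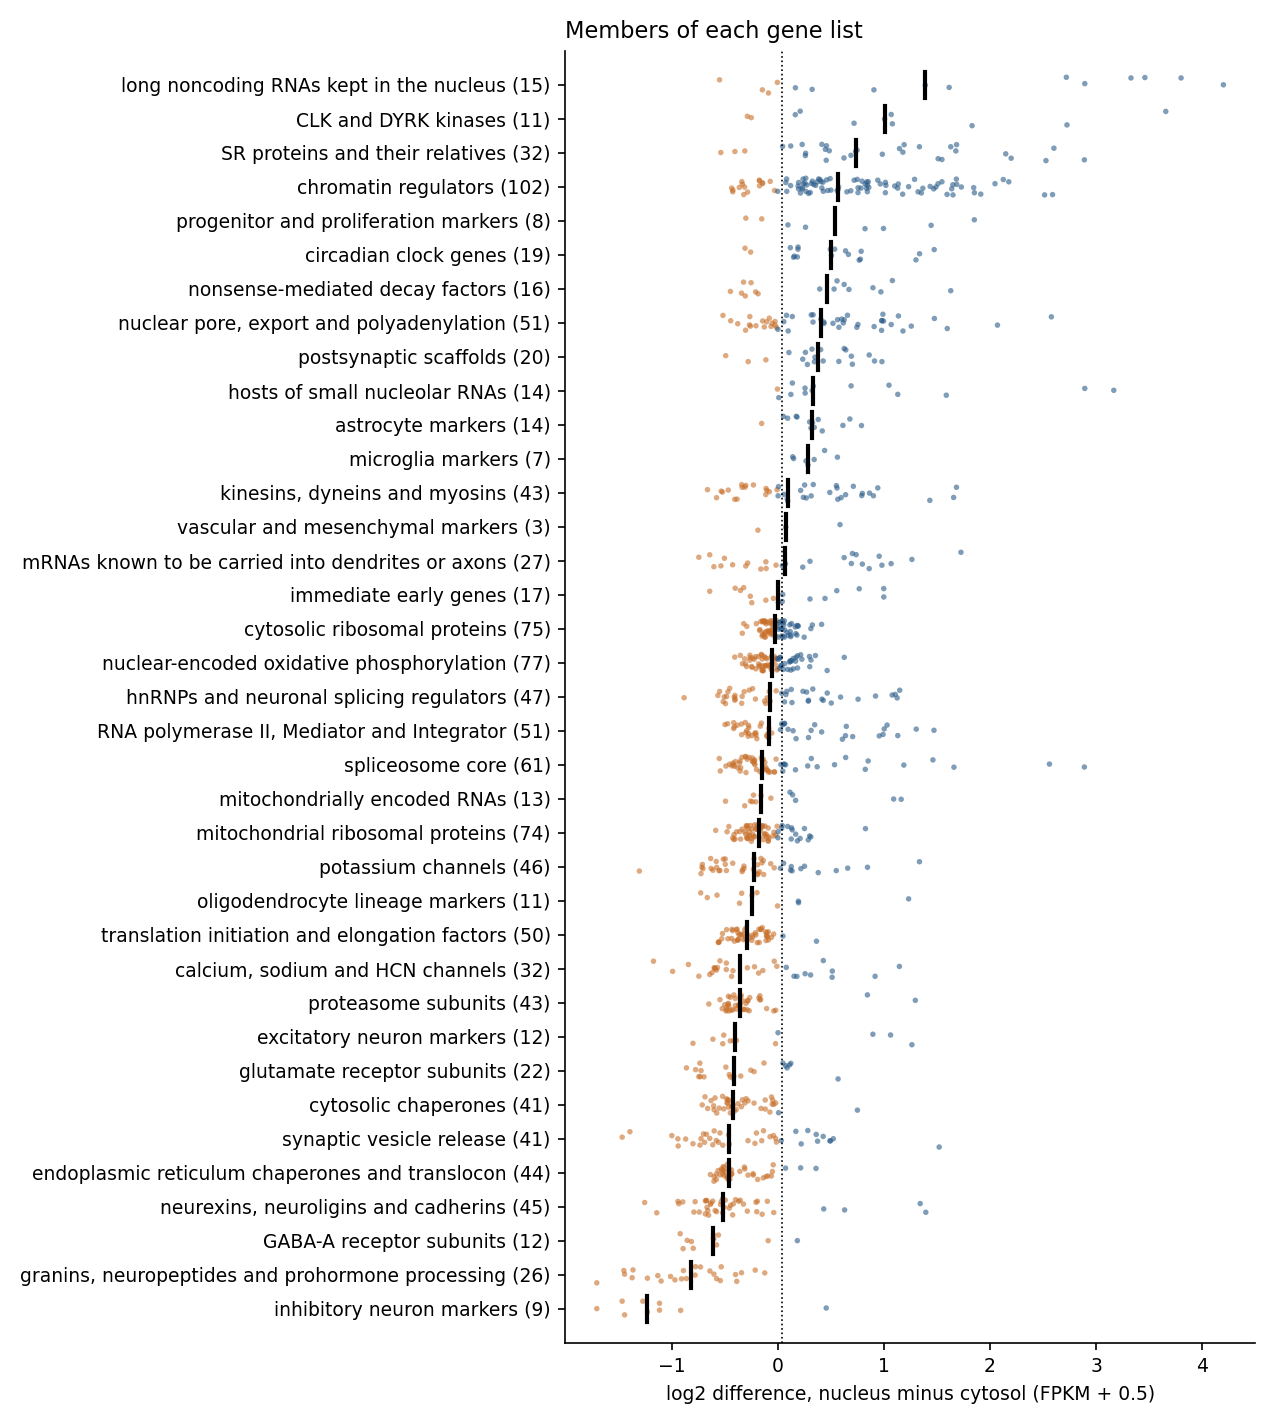
Log2 difference, nucleus minus cytosol, of each tested member of the 37 gene lists (points; blue above 0, orange below; Xist is drawn at the right edge), with the number of members in parentheses and the list median as a black bar. The dotted line is the median of all genes tested, 0.05. Medians run from 1.39 for the nuclear long noncoding RNAs to -1.23 for the inhibitory markers.

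The list of granins, neuropeptides and enzymes that process prohormones gave 25 of 26 higher in the cytosol and 0 in the nucleus. Of these, 9 were at least 2-fold, and the median was -0.82. The list is mixed: it also holds Nxph1 and Cbln2, which are neither peptide precursors nor processing enzymes, and it leaves out Pnoc. Sst, Npy and Vip are on the list of inhibitory markers too, so the 2 lists are in part the same genes. Chaperones and translocon parts of the endoplasmic reticulum gave 35 of 44 in the cytosol and 2 in the nucleus, with a median of -0.46. Sec61a1, the channel of the translocon, had 71.2, 79.3 and 69.1 FPKM in the nucleus and 113, 120 and 109 in the cytosol (-0.63 ± 0.04, limma adjusted p = 4.1e-06), a shift seen in every pair.

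Neurotransmitter receptors and their scaffolds fell on different sides. Of 22 glutamate receptor subunits, 15 were higher in the cytosol and 2 in the nucleus (median -0.42), led by Grik1 (-0.86), Gria4 (-0.77) and Gria3 (-0.74). Of 12 GABA-A receptor subunits, 10 were higher in the cytosol and 1 in the nucleus (median -0.61), among them Gabrd (-0.92) and Gabra2 (-0.85). Postsynaptic scaffolds, which anchor these receptors, gave 16 of 20 in the nucleus and 2 in the cytosol (median 0.38). Shank3 had 57.9, 48.7 and 47.1 FPKM in the nucleus and 25.5, 24.9 and 26.3 in the cytosol (0.98 ± 0.07, limma adjusted p = 4.6e-06). Dlgap2 (0.91) and Shank1 (0.86) followed, and Dlg3 (-0.49) and Gphn (-0.28), the anchor of inhibitory synapses, went the other way. No test compared the scaffolds with the receptors.

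Genes of synaptic vesicle release were higher in the cytosol in 26 of 41 cases and in the nucleus in 10 (median -0.46). The calcium sensor Syt1 had 316, 342 and 319 FPKM in the nucleus and 602, 637 and 636 in the cytosol (-0.94 ± 0.04, limma adjusted p = 4.5e-07), and the vesicle glycoprotein Sv2a stood at -0.997. The nuclear side was led by Unc13b, a priming factor, at 1.52, and by the active zone scaffold Bsn at 0.50. Neurexins, neuroligins, cadherins and their partners gave 38 of 45 in the cytosol and 4 in the nucleus (median -0.52), from Cntnap4 (-1.25) and Cntnap2 (-1.14) to Celsr3, a large atypical cadherin, at 1.40.

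Ion channels leaned to the cytosol with exceptions on both sides. Of 46 potassium channel genes, 29 were higher in the cytosol and 9 in the nucleus (median -0.22), from Kcnc2, a fast-spiking channel of interneurons (-1.30), to Kcnn3, a calcium-gated channel (1.34). Of 32 calcium, sodium and HCN channel genes, 19 were higher in the cytosol and 9 in the nucleus (median -0.35). Here Cacng5 (-1.17) marked one end and Cacna1d, an L-type calcium channel, the other (1.15).

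The mRNAs best known for transport into dendrites or axons lay on both sides. Of 27 tested, 13 were higher in the nucleus and 10 in the cytosol, near the 41.6% and 33.7% of all genes, with a median of 0.07. Camk2a, the kinase of long-term potentiation (chr18:60925631-60988152), had 568, 514 and 488 FPKM in the nucleus and 213, 212 and 227 in the cytosol (1.26 ± 0.06, limma adjusted p = 6.7e-07). Its nuclear libraries were all more than 2 times its cytosolic ones. Sptbn1, a spectrin, had 379, 420 and 404 against 116, 128 and 119 (1.73). Actb, beta-actin, was on the cytosolic side, with 550, 564 and 597 FPKM against 854, 851 and 891 (-0.60 ± 0.04, limma adjusted p = 2.3e-06), and the tubulin Tubb3 stood at -0.74. Kinesins, dyneins and myosins were split into 21 higher in the nucleus and 12 in the cytosol of 43, near the shares of all genes.

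Genes for the making, folding and breakdown of proteins were mostly a little higher in the cytosol. Translation factors gave 39 of 50 in the cytosol and 1 in the nucleus (median -0.29), proteasome subunits 36 of 43 and 2 (median -0.35), and cytosolic chaperones 33 of 41 and 1 (median -0.42). Hspa8, the constitutive Hsc70, had 244, 251 and 263 FPKM in the nucleus and 399, 392 and 381 in the cytosol (-0.63 ± 0.04, limma adjusted p = 5.6e-06). None of these cytosolic differences reached 2-fold. Psme4, a proteasome activator that works in the nucleus, was the largest exception at 1.30.

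Ribosomal proteins and genes of oxidative phosphorylation lay near the middle. Of 75 cytosolic ribosomal proteins, 10 were higher in the nucleus and 15 in the cytosol (median -0.02), so most of them did not pass the test, whereas 75.3% of all genes did. Of 77 nuclear-encoded genes of oxidative phosphorylation, 17 were higher in the nucleus and 30 in the cytosol (median -0.06). Both medians changed sign under quantile normalization, to 0.12 and 0.11. Many ribosomal proteins have processed pseudogenes of near-identical sequence, which makes their values uncertain. Mitochondrial ribosomal proteins gave 38 of 74 in the cytosol and 7 in the nucleus (median -0.18).

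Of the 13 entries on the mitochondrial genome, 4 were higher in the nucleus and 6 in the cytosol. The small ribosomal RNA mt-Rnr1 had 3771, 3369 and 3397 FPKM in the nuclear libraries and 1607, 1414 and 1688 in the cytosolic ones (1.16 ± 0.05, limma adjusted p = 5.4e-07), while the mRNA mt-Nd2 stood at -0.31. RNAs of the same organelle were therefore not shifted equally between the unstimulated fractions. The counts did not repeat in the bicuculline libraries, where 2 entries were higher in the nucleus and 1 in the cytosol. The median was 0.14 there and -0.16 in the unstimulated libraries.

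The difference also varied with the structure of the gene. Of the genes tested, 11005 were matched to the GENCODE M21 annotation by symbol and position. Genes with 3 to 4 exons had a median log2 difference of -0.12, those with 17 to 32 exons 0.26, and the 430 genes with more than 32 exons 0.68. The share at least 2-fold higher in the nucleus was 7.84%, 17.5% and 33.5% in these classes. Over genes at an FPKM of at least 1 in all 6 libraries, the medians of these classes were -0.16, 0.20 and 0.57. By spliced length, the median was -0.13 for transcripts of 1 to 2 kb and 0.47 above 8 kb. Among transcripts of 4 to 8 kb, the median still ran from -0.02 with 1 to 4 exons to 0.27 with 17 to 32 and 0.58 with more than 32. By GC content, the medians of 6 classes stayed between -0.03 and 0.01. These are descriptions across genes, which are not independent replicates.

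**Figure D4:**
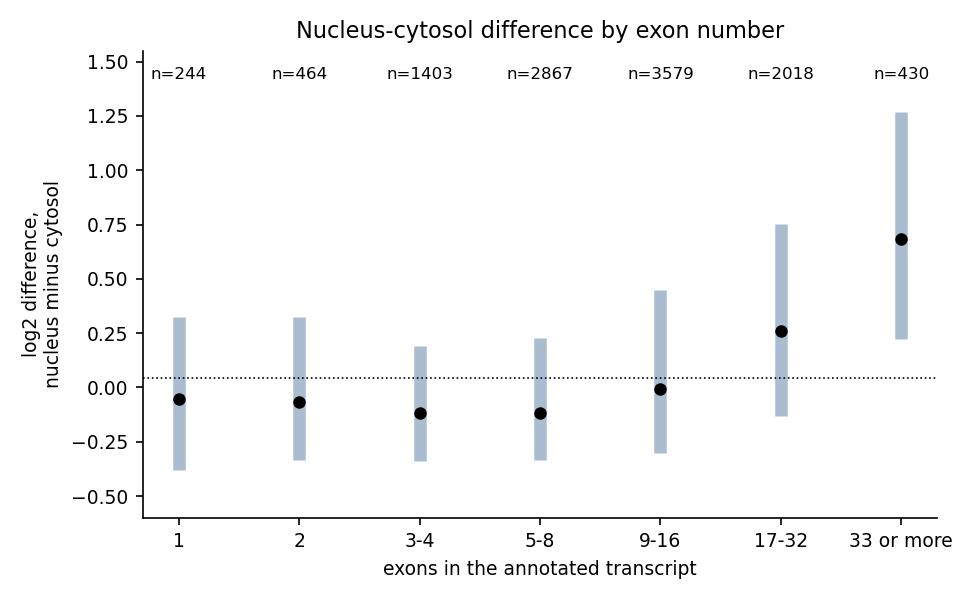
Median log2 difference, nucleus minus cytosol, by the number of exons in the annotated transcript (black points), with the range from the first to the third quartile (bars) and the number of genes. The dotted line is the median of all genes tested; the median is -0.12 for 3 to 4 exons and 0.68 for 33 or more.

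By gene class, 10713 matched protein-coding genes had a median of -0.01, 83 lincRNAs 0.27, 74 processed transcripts 0.32 and 17 miRNA genes 1.46. The miRNA genes were read here in polyadenylated RNA, which does not measure mature microRNAs. Their median level was 5.96 FPKM in the nucleus and 1.20 in the cytosol, the latter near the entry rule. The 2081 entries with no name had 0.59, and 36.3% of them were at least 2-fold higher in the nucleus, but 589 of them had reached an FPKM of 1 in nuclear libraries alone and had to be higher there. Over the 1215 such entries at an FPKM of at least 1 in all 6 libraries, the median was 0.08 and the share 15.5%. The typical gene at least 2-fold higher in the nucleus was also lower in level, at a median of 4.33 FPKM in the nucleus against 7.79 over all genes tested.

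The whole-cell libraries with the same library numbers were set beside these fractions. A whole-cell profile was written as a weighted sum of the nuclear and cytosolic profiles with the same number, and the weight of the nuclear profile that came closest was 35.7%, 48.9% and 43.7%, a mean of 42.8 ± 6.65% (SD, n = 3). Among the 2111 genes that differed at least 2-fold, the whole-cell value lay between the 2 fractions for 99.0 to 99.2%, and among all genes tested for 76.3 to 77.7%.

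With these weights, the share of a gene's RNA in the nuclear fraction could be estimated, and its median over genes was 43.6%. It was at least 75% for 963 genes, at least 90% for 143, and at most 25% for 48. The estimate was 99.0 ± 0.40% for Xist, 92.1 ± 3.8% for Clk1, 88.0 ± 3.5% for Meg3, 64.0 ± 5.3% for Camk2a, 33.1 ± 6.3% for Actb and 18.7 ± 3.2% for Sst (SD, n = 3). The mitochondrially encoded RNAs, which are not nuclear, had a median of 40.2%. The estimate is therefore a share of the nuclear fraction, with any RNA carried along in it, and not of nuclei. It holds only as far as the 3 libraries of a number describe the same cells.

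The libraries of cells given 20 µM bicuculline for 1 h under the same triptolide treatment gave the ratio a second time. There, 9466 of the same 13568 genes passed the test (69.8%), 4391 with a higher value in the nucleus (32.4%) and 5075 in the cytosol (37.4%), and 1402 (10.3%) and 31 (0.228%) were at least 2-fold. Of the 2064 genes at least 2-fold higher in the unstimulated nucleus, 2044 (99.0%) passed on the same side, and 1385 were at least 2-fold in both, which is 67.1% of the unstimulated and 98.8% of the bicuculline set. Of the 47 on the cytosolic side, 43 (91.5%) passed on the same side, and 21 were at least 2-fold in both, which is 44.7% of the unstimulated and 67.7% of the bicuculline set. The medians over these genes were 1.48 and -1.23 in the unstimulated libraries, where the genes were chosen, and 1.19 and -0.97 in the bicuculline ones. The difference between the 2 states was not tested.

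Single genes held their side in the second set. Xist stood at 6.88, Meg3 at 3.08, Clk1 at 2.98, Snrnp70 at 2.10, Camk2a at 1.29 and Chd4 at 2.29, and on the cytosolic side Sst at -1.81, Npy at -1.53, Slc32a1 at -1.13 and Gad1 at -0.97. Each passed the test there too, with a limma adjusted p from 8.2e-08 for Chd4 to 0.012 for Meg3. The inhibitory markers again gave 8 of 9 in the cytosol and 1 in the nucleus, and the chromatin regulators 64 of 102 in the nucleus and 11 in the cytosol. Ribosomal proteins did not repeat: 57 of 75 were higher in the cytosol and 0 in the nucleus, with a median of -0.26.

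**Figure D5:**
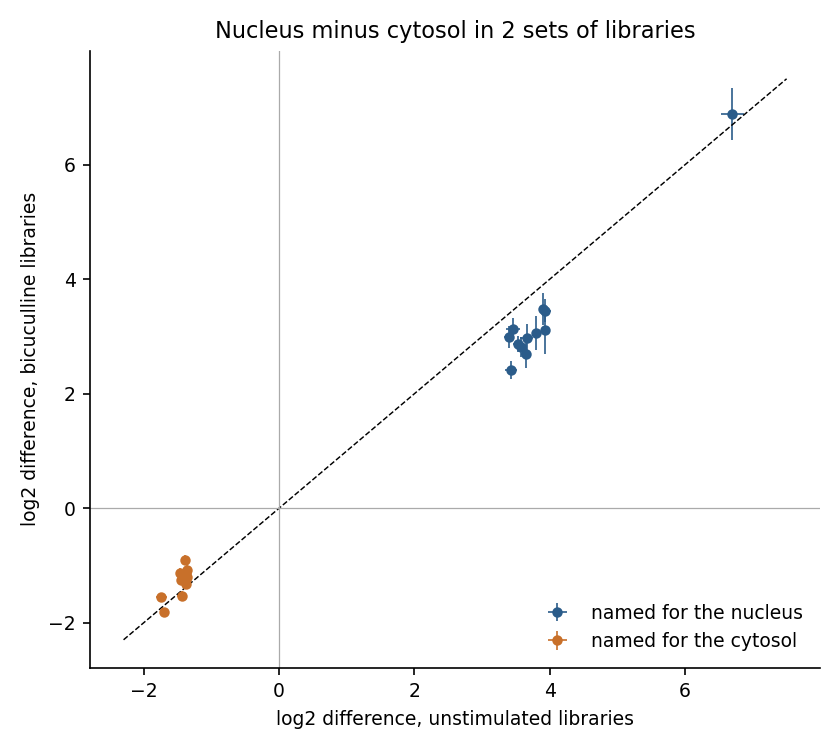
Log2 difference, nucleus minus cytosol, of the 24 genes named by rank (12 on each side) in the unstimulated (horizontal) and bicuculline (vertical) libraries. The naming rule leaves out some entries with wider differences. Error bars are the SE of each fit (n = 3 pairs) and the dashed line marks equal values. All 24 lie on the same side of 0 in both sets.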

How the data were processed

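The deposited table holds 1 FPKM value per gene entry and library, which the authors made from stranded poly(A) libraries. Per the submitters' processing notes, FastQC, Picard, SAMtools and STAR 2.4.0 were used with the mm10 build; how fragments were counted, and with which strand setting, is not given in the sources used here. Groups, library numbers (S numbers) and doses were taken from the labels.

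Values were tested as log2(FPKM + 0.5) with limma 3.58.1 (R 4.3.3; trend and robust variance moderation, two-sided) with the library number as a block, and p-values were adjusted by Benjamini-Hochberg over all 13568 genes. The members and the 37 gene lists were chosen with earlier results of these data known. The fractions were paired by number: across genes, deviations from the group means correlated at 0.65, 0.59 and 0.53 within a number. Values between numbers, -0.38 to -0.19, add little, since the 3 deviations of a group cancel out and so tend to give negative values. Genes were named by rank of the log2 difference, 12 on each side among those with a mean of at least 5 FPKM in the higher fraction, no overlap between fractions and a single, non-provisional gene symbol, which leaves out unnamed and joint entries, plus up to 3 per list and side; others complete a list or were chosen after their values were seen. No test compared lists. The values of a few list members are not reported here.

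Depth was estimated from the smallest steps of the values of entries up to 5000 nucleotides long and is approximate, since 50.2 to 55.7% of low values lay on the steps in these 6 libraries. At this depth, 10 fragments on a gene of 2 kb correspond to at most 0.0738 FPKM. Alternatives covered the pseudocount, the filter, scaling, the block, leaving out a pair and a fit of 18 libraries.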

Additional observations from a re-analysis of the deposited data

How the results depend on the processing

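Counts of genes that differed were 10213 in the unstimulated libraries. They moved to 17098 (13234 higher in the nucleus) with no filter on low values, to 6667 (2775 higher in the nucleus, 826 at least 2-fold) with an FPKM of at least 5, and to 2111 with a 2-fold criterion. Without the replicate block 8846 genes passed, and leaving out each pair of libraries in turn gave 9236 to 10389. Of genes at an FPKM of at least 1 in all 6 libraries, an alternative chosen after seeing the data, 978 were at least 2-fold higher in the nucleus. Quantile normalization gave 1045 at least 2-fold higher in the nucleus and 282 in the cytosol.

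In the bicuculline libraries, no filter gave 7242 higher in the nucleus. An FPKM of at least 5 gave 2086 higher in the nucleus, with 539 and 20 at least 2-fold in the nucleus and the cytosol. An FPKM of at least 1 in all 6 left 564 at least 2-fold in the nucleus, quantile normalization gave 758 and 97, and the 2-fold criterion 1433. The medians of 6 lists changed sign under quantile normalization. They were hnRNPs (0.0172), cytosolic ribosomal proteins (0.12), oxidative phosphorylation (0.11), microglia markers (-0.36), immediate early genes (-0.34) and vascular and mesenchymal markers (-0.57). Quantile normalization moved 20 of the 37 list medians by over 1.5 times, those 6 included. Among them were RNA polymerase II, Mediator and Integrator (-0.28), the spliceosome (-0.23), CLK and DYRK kinases (0.64), vesicle release (-0.25), potassium channels (-0.42), translation factors (-0.19), and chaperones of the cytosol (-0.26) and the endoplasmic reticulum (-0.29). The median of the nuclear long noncoding RNAs was 0.91 over members at an FPKM of at least 1 in all 6 libraries. The cause of these changes was not tested, beyond the smaller or larger number of genes that each filter leaves. Of the 24 genes named by rank, the call of Tac2 was lost without the replicate block, and no other call was lost under any alternative in which the gene was tested. The weight of nuclear RNA was 41.1 to 42.8% under 3 alternatives. Depth limits genes near the filter, where few fragments underlie a value.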
